A study of Sus scrofa with 12 samples.

Results

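The miR-200 family of microRNAs was followed in testis of boars of the Hezuo (HZ) and the Landrace (LC) breed. Every miRNA listed by the authors named as miR-141, miR-200 or miR-429, with or without a letter, was taken as a member, which gave 8 of 1452 listed miRNAs. Small RNA libraries came from whole testis of HZ boars aged 30 days (Ha) or 120 days (Hb) and of LC boars aged 30 days (La) or 120 days (Lb), with 3 libraries in each of the 4 groups. RNA was extracted from samples that had been pooled, by the study's methods, and a library may therefore hold RNA of more than 1 boar. P-values measure the spread between libraries. A library held 6520197 to 16874633 counts on listed miRNAs, of which the 8 members took 0.00588 to 0.0435%. Over all listed miRNAs the 3 Hb libraries stood apart from each other, with a chi-square divided by its degrees of freedom of 418 to 1178 for their 3 pairs and 49.45 to 242.6 for pairs of the other groups, and Hb replicate 2 had the lowest TMM factor (0.694). Results that rest on Hb are therefore also given without single libraries. Levels are given as the authors' TPM, the tags of a mature miRNA scaled to a fixed library total. A tag stands for 1 sequenced molecule whatever its length, so levels of mature miRNAs were compared without a correction for length.

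The miR-200 family is known as a mark of epithelial cells. Its members repress ZEB1 and ZEB2, transcription factors that switch off E-cadherin, and these factors in turn repress the family. In mammals the family is made from 2 transcripts, of which one carries miR-200b, miR-200a and miR-429 and the other miR-200c and miR-141. A miRNA chooses its targets mainly through its seed, bases 2 to 8 from the 5′ end, and the family has 2 seeds that each occur in both transcripts. In the testis, epithelia line the seminiferous tubules, where Sertoli cells nurse the germ cells, and the ducts that leave them.

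The sequences of the 8 members are shown because seeds and shared starts decide which of them can be told apart. They are printed as listed by the authors, 5′ to 3′ and with T for U, with the seed in capitals.
ssc-miR-200b: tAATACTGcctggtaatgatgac
ssc-miR-429: tAATACTGtctggtaatgccgt
miR-429-z: tAATACTGcctggtaatgaaa
miR-200-y: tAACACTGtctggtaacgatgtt
ssc-miR-141: tAACACTGtctggtaaagatg
miR-141-y: tAACACTGtctggtaaagatggc
miR-200-x: cATCTTACtgggcagcattgga
miR-141-x: cATCTTCCagcacagtgttgga

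The seed AATACTG was shared by ssc-miR-200b, ssc-miR-429 and miR-429-z, and AACACTG by miR-200-y, ssc-miR-141 and miR-141-y. With positions counted from 1 at the 5′ end, the change T4C, from ssc-miR-200b to miR-200-y, separates the seeds. No other listed miRNA carried either seed. The sequence of miR-200-y is the one known as miR-200a-3p in other mammals, and that of miR-200-x is known as miR-200b-5p, the opposite arm of the hairpin of miR-200b. The sequence of ssc-miR-141 is the first 21 bases of miR-141-y, so both list the same arm of miR-141 with a different 3′ end, while miR-141-x is its opposite arm. Despite its name, miR-429-z shares its first 19 bases with ssc-miR-200b and only 8 with ssc-miR-429. Within 21 bases ssc-miR-141 and miR-200-y differ by A17C alone. How the authors' counting divided short or altered tags between such close sequences was not tested. In the RefSeq annotation of Sscrofa11.1, MIR429 lies on chromosome 6 from 63491921 to 63492001, between the genes LOC110261078 and TTLL10, and overlaps no other gene. MIR200A, MIR200B, MIR200C and MIR141 were not placed here.

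The most abundant member was miR-200-y, with 55.8% of the family's counts, followed by ssc-miR-200b with 30.6%. The others were ssc-miR-141 (6.76%), miR-141-y (2.91%), miR-200-x (2.15%) and ssc-miR-429 (1.64%). These 6 were counted in all 12 libraries. Only 22 tags of miR-429-z and 21 of miR-141-x were counted in all. The tags of miR-429-z fell 6 to Ha, 6 to Hb, 9 to La and 1 to Lb, while those of miR-141-x were 3 in Ha, 2 in La and 16 in Lb, with 0 in Hb. By mean TPM, miR-200-y ranked 209 and ssc-miR-200b 252 among the 1452 listed miRNAs. Summed over the family, the level was 222.9 ± 16.7 TPM (SD, n = 3) for Ha and 129.4 ± 104 TPM for Hb. For La it was 187.1 ± 38.5 TPM and for Lb 225.9 ± 134 TPM.

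The level of ssc-miR-200b was 64.4, 80.2 and 75.9 TPM in the Ha libraries and 76.1, 5.23 and 13.1 TPM in Hb replicates 1, 2 and 3. It was 81.5, 54.9 and 59.3 TPM in La and 41.4, 109.2 and 33.5 TPM in Lb. Hb replicate 1 thus stood among the libraries at 30 days, while Hb replicates 2 and 3 were lower than the other 10 libraries. Counting error is small beside this gap, since the 48 tags of Hb replicate 2 allow 3.86 to 6.94 TPM and the 565 of Hb replicate 1 allow 70.0 to 82.6 TPM (exact 95% Poisson intervals, which cover counting error only). Lb replicate 2 was the highest of the 12. In RNA of whole testis, fewer cells of a type and less RNA per cell cannot be told apart.

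The lowest and the highest libraries were the same for the 3 miRNAs that belong with it on 1 transcript in other mammals, while the order of the libraries between them differed. In HZ boars miR-200-y was at 118.7, 136.0 and 129.5 TPM at 30 days and at 134.6, 19.1 and 47.0 TPM at 120 days, and in LC boars at 135.2, 90.2 and 100.5 TPM, then 82.2, 203.5 and 78.9 TPM. In the same order of groups, miR-200-x was at 4.33, 4.87 and 4.54 TPM (Ha), 5.79, 0.763 and 1.67 TPM (Hb), 3.93, 2.84 and 5.38 TPM (La), and 2.58, 9.12 and 2.85 TPM (Lb). The values of ssc-miR-429 were 3.69, 3.86 and 3.52 TPM (Ha), 3.77, 0.545 and 1.29 TPM (Hb), 2.97, 1.90 and 1.79 TPM (La), and 3.51, 8.39 and 3.03 TPM (Lb). In each of the 3, Hb replicate 2 was the lowest library, Hb replicate 3 the next, and Lb replicate 2 the highest. The 5 tags of ssc-miR-429 and 7 of miR-200-x in Hb replicate 2 leave wide intervals, of 0.177 to 1.27 and 0.307 to 1.57 TPM.

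The miR-141 entries followed another order. In HZ boars ssc-miR-141 was at 10.3, 9.64 and 6.02 TPM at 30 days and at 19.9, 22.5 and 16.9 TPM at 120 days. In LC boars it was at 3.93, 4.84 and 4.06 TPM, then 18.1, 32.7 and 16.6 TPM. All 6 libraries at 120 days were above all 6 at 30 days, and Hb replicates 2 and 3 were close to Hb replicate 1. The longer miR-141-y was at 4.24, 3.96 and 4.44 TPM (Ha), 7.54, 4.03 and 7.85 TPM (Hb), 2.88, 2.09 and 2.58 TPM (La), and 6.88, 16.5 and 7.12 TPM (Lb). Lb replicate 2 was the highest library for both. Hb replicate 2 lay within the Ha range for miR-141-y.

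**Figure D1:**
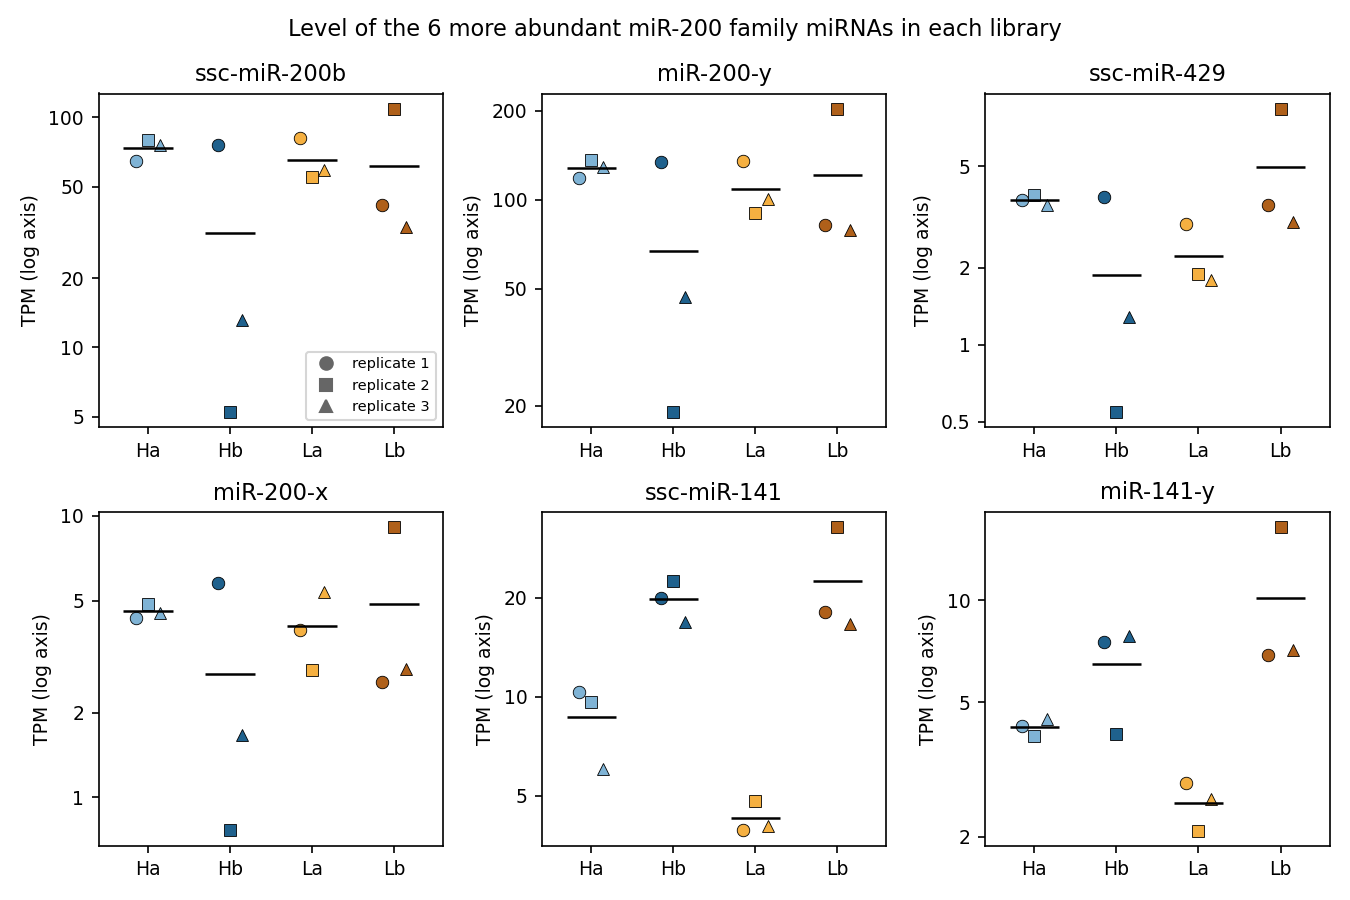
Level of the 6 more abundant family miRNAs in each library, in TPM on a log axis, with 3 libraries (points, shaped by replicate number) and the mean (line) for each of Ha, Hb, La and Lb. In ssc-miR-200b, miR-200-y, ssc-miR-429 and miR-200-x the points of Hb replicates 2 and 3 lie below the other 10 libraries, whereas ssc-miR-141 is higher in the 6 libraries at 120 days.

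Between the ages in HZ boars (Ha vs. Hb), ssc-miR-141 rose and ssc-miR-200b fell, and no other member was called. To be called, a miRNA needed a log2 fold change beyond 1 in either direction and an unadjusted p-value under 0.05 in edgeR's quasi-likelihood test. The study used these thresholds with edgeR and does not name the test. These 2 of 8 members compare with 39.6% of the 1441 miRNAs tested, and the 1 of 8 (ssc-miR-141) that also had an adjusted p under 0.05 compares with 31.6%. The mean of ssc-miR-141 was 8.66 ± 2.31 TPM (SD, n = 3) in Ha and 19.8 ± 2.80 TPM in Hb. Its log2 fold change was 1.37 with a standard error of 0.377 (adjusted p = 0.0124 by edgeR with Benjamini-Hochberg adjustment). Its call held without each of the 6 libraries in turn, at log2 fold changes of 1.02 to 1.67, with the adjusted p at 0.0624 without Ha replicate 3. It was the only member whose Hb libraries did not overlap those of Ha, a state reached by 43.7% of the miRNAs tested. For miR-141-y the log2 fold change was 0.70 (adjusted p = 0.137), and with both entries of this arm summed it was 1.203 (adjusted p = 0.0124 by edgeR).

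The mean of ssc-miR-200b was 73.5 ± 8.19 TPM in Ha and 31.5 ± 38.8 TPM in Hb, with a log2 fold change of -1.35 (standard error 0.574). Its adjusted p of 0.0829 by edgeR missed 0.05, and Hb replicate 1 overlapped the Ha libraries. Without Hb replicate 1 the log2 fold change was -2.66 (adjusted p = 1.2e-05 by edgeR). The call was lost without Ha replicate 2 (-1.26), Ha replicate 3 (-1.33), Hb replicate 2 (-0.88) or Hb replicate 3 (-1.02). The same happened when libraries were scaled by size alone (-1.21) and under a filter on low counts (-1.29). The values of its companions were -0.9996 for miR-200-y, just short of the fold threshold, -1.004 for ssc-miR-429, which missed the threshold of p, and -0.78 for miR-200-x (adjusted p = 0.0769, 0.126 and 0.235 by edgeR). With RLE normalization, DESeq2 or edgeR's exact test miR-200-y passed, for example at -1.002 with DESeq2. Without Hb replicate 1 all 3 were called, at -1.61, -1.63 and -1.53. With it left out, 5 of the 8 members were called, against 40.2% of all tested in that fit.

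In LC boars (La vs. Lb), both entries of the main miR-141 arm rose, while the abundant members of the other transcript did not pass the test. The mean of ssc-miR-141 was 4.27 ± 0.490 TPM (SD, n = 3) in La and 22.5 ± 8.88 TPM in Lb. Its log2 fold change was 2.22 with a standard error of 0.296 (adjusted p = 6.93e-05 by edgeR). The mean of miR-141-y was 2.52 ± 0.401 TPM in La and 10.2 ± 5.46 TPM in Lb, with a log2 fold change of 1.83 and a standard error of 0.376 (adjusted p = 0.00197 by edgeR). Without each library in turn the log2 fold changes were 1.75 to 2.43 and 1.19 to 2.08, with both called throughout. The lowest of each were reached without Lb replicate 2. In all, 4 of 8 members were called, against 32.1% of the 1446 tested. These entries of miR-141 were the 2 with an adjusted p under 0.05 as well, against 28.6%. The libraries of 5 did not overlap, against 50.3%.

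The other calls in La vs. Lb rested on few tags. The opposite arm miR-141-x had 2 tags in La and 16 in Lb, a ratio of 9.14 with an exact 95% counting interval of 2.15 to 81.9. For miR-429-z there were 9 tags in La and 1 in Lb, a ratio of 0.127 with an interval of 0.0029 to 0.916. Neither had an adjusted p under 0.05 (0.0528 and 0.0717 by edgeR), and with the Wald test of DESeq2 both missed the threshold of p at log2 fold changes of 3.26 and -3.08. Leaving out La replicate 2 or Lb replicate 2 ended both calls. Leaving out La replicate 1 also ended that of miR-141-x, as did La replicate 3 or Lb replicate 3 for miR-429-z. After these removals the log2 fold changes of miR-141-x were 1.995 to 2.52 and those of miR-429-z -2.80 to -2.37.

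Members of the other transcript had log2 fold changes in La vs. Lb of -0.24 for ssc-miR-200b (standard error 0.364), 0.01 for miR-200-y (0.320), 0.05 for miR-200-x (0.472) and 0.9974 for ssc-miR-429 (0.416). The last of these fell just short of the threshold (adjusted p = 0.0766 by edgeR), although its 3 Lb libraries were above its 3 La libraries. It was called without La replicate 1 (1.22), Lb replicate 1 (1.23) or Lb replicate 3 (1.28) and with scaling by library size (1.19), and was 0.30 without Lb replicate 2. Leaving out Lb replicate 2 also moved the values of the others. Without it, ssc-miR-200b was called lower in Lb (-1.08, adjusted p = 0.000362 by edgeR), and miR-200-y and miR-200-x were at -0.70 and -0.88. The median log2 fold change of all miRNAs tested was 0.32 in both comparisons between the ages.

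**Figure D2:**
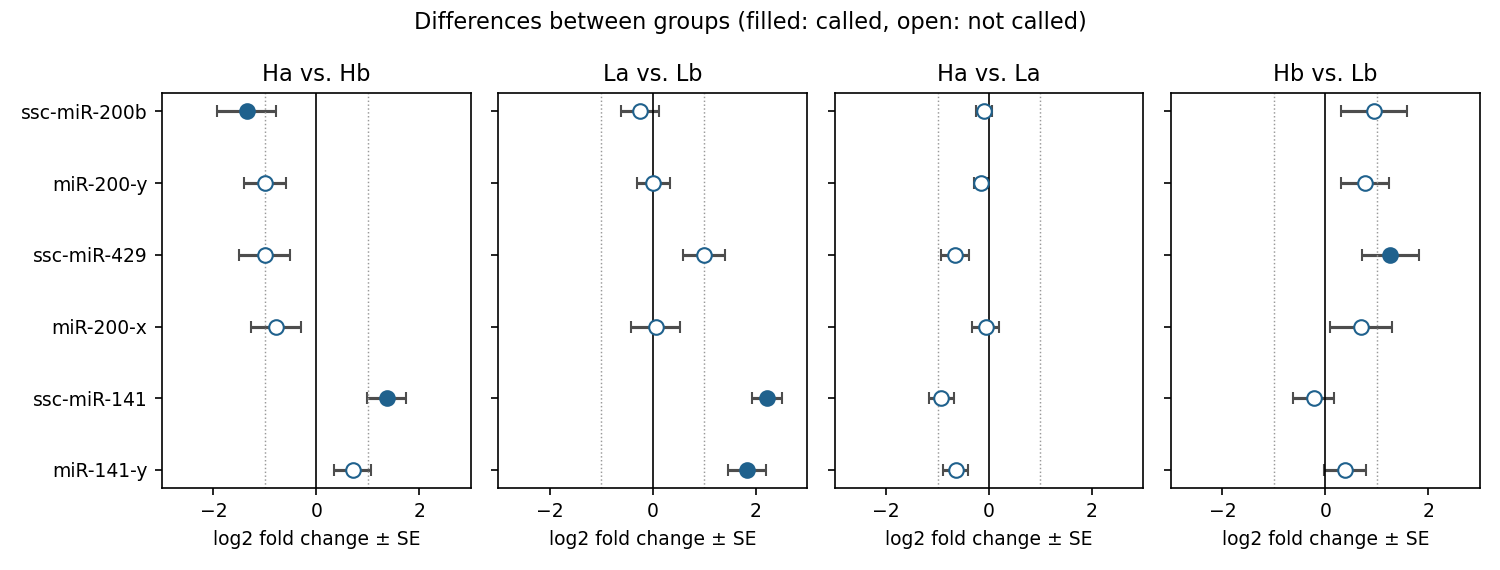
Log2 fold change of 6 family miRNAs in the 4 comparisons, positive where the group named last is higher, with standard errors from edgeR. Filled points were called, open points were not, and dotted lines mark an absolute log2 fold change of 1. ssc-miR-141 is called in both comparisons between the ages, at 1.37 and 2.22.

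Between the breeds at 30 days (Ha vs. La) no member was called, against 9.47% of the 1278 miRNAs tested, or 5.24% with an adjusted p under 0.05. At an unadjusted p under 0.05, whatever the fold, there were 3 members against 24.7% of those tested. The edgeR exact test and DESeq2 also called 0 members, against 9.7% and 6.73% of those tested. The nearest was ssc-miR-141, which was lower in LC boars (log2 fold change -0.93 with a standard error of 0.246, adjusted p = 0.0242 by edgeR), with every La library below every Ha library. Its value passed the fold threshold without Ha replicate 3 (-1.13) or La replicate 2 (-1.04) and with scaling by library size (-1.03). The libraries of miR-141-y (-0.65, adjusted p = 0.103) and ssc-miR-429 (-0.66, adjusted p = 0.137) did not overlap either, with La lower in both, so that 3 of 8 members did not overlap, against 27.5% of those tested. For ssc-miR-200b and miR-200-y the log2 fold changes were -0.09 (standard error 0.157) and -0.16 (standard error 0.143).

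At 120 days (Hb vs. Lb), ssc-miR-429 and miR-141-x were called higher in Lb, and neither had an adjusted p under 0.05. These 2 of 8 compare with 16.8% of the 1444 tested, and the 0 of 8 with an adjusted p under 0.05 with 3.25%. The level of ssc-miR-429 was 1.87 ± 1.69 TPM (SD, n = 3) in Hb and 4.98 ± 2.97 TPM in Lb (log2 fold change 1.26, adjusted p = 0.209 by edgeR). This call was lost without Hb replicate 2 (0.99), Hb replicate 3 (1.12) or Lb replicate 2 (0.67), with scaling by library size (1.43) and under the filter on low counts (1.22). No tag of miR-141-x was counted in Hb, which allows up to 3 tags in a library, and with 16 tags in Lb it was at least 1.3-fold higher there. That bound rests on Lb replicate 2, at 0.944 TPM against 0.331 and 0.178 TPM in Lb replicates 1 and 3, which lie near or under the level of 3 tags in the Hb libraries (0.327 to 0.404 TPM). The call (adjusted p = 0.123 by edgeR) was lost without Lb replicate 2, where the fitted log2 fold change went from 5.17 to 4.33, values that depend on the prior count since Hb is at 0. It was the only member whose groups did not overlap, against 26.5% of those tested. For ssc-miR-141 the difference was -0.22 (standard error 0.396, adjusted p = 0.785 by edgeR), and it was 0.20 with scaling by library size and 0.27 without Hb replicate 2.

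The difference at 120 days moved with the libraries used. With all libraries, the log2 fold change was 0.94 for ssc-miR-200b (standard error 0.634, adjusted p = 0.415 by edgeR) and 0.77 for miR-200-y (standard error 0.469, adjusted p = 0.364). Without Hb replicate 1 the values were 2.30 and 1.45 (adjusted p = 0.0152 and 0.0526 by edgeR), and 6 of the 8 members were called, against 21.1% of all tested in that fit. Of these ssc-miR-200b alone had an adjusted p under 0.05. Without Lb replicate 2 they were 0.23 and 0.18. Without Lb replicate 3 ssc-miR-200b was also called, at 1.23. Whether the change with age differed between the breeds was tested as an interaction over the 12 libraries. None of the 8 members had an adjusted p under 0.05 by edgeR, against 1.38% of all 1452. There were also 0 members in the other fits of all 12 libraries, in which 0 to 8.33% of all miRNAs passed, the most with DESeq2. At an unadjusted p under 0.05 there were 3 (ssc-miR-429, miR-141-y and miR-141-x), against 21.1% of all. The nearest was ssc-miR-429 (1.93, standard error 0.674, adjusted p = 0.117 by edgeR). Without Hb replicate 1, ssc-miR-200b (2.46), ssc-miR-429 (2.68) and miR-200-y (1.66) had an adjusted p under 0.05 (0.0121, 0.0162 and 0.0399 by edgeR). These 3 of 8 compare with 11.6% of all miRNAs in that fit. Leaving out any other single library gave 0 members, against 0 to 2.34% of all. Without Lb replicate 2, ssc-miR-200b was at 0.30 (adjusted p = 0.969 by edgeR).

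**Figure D3:**
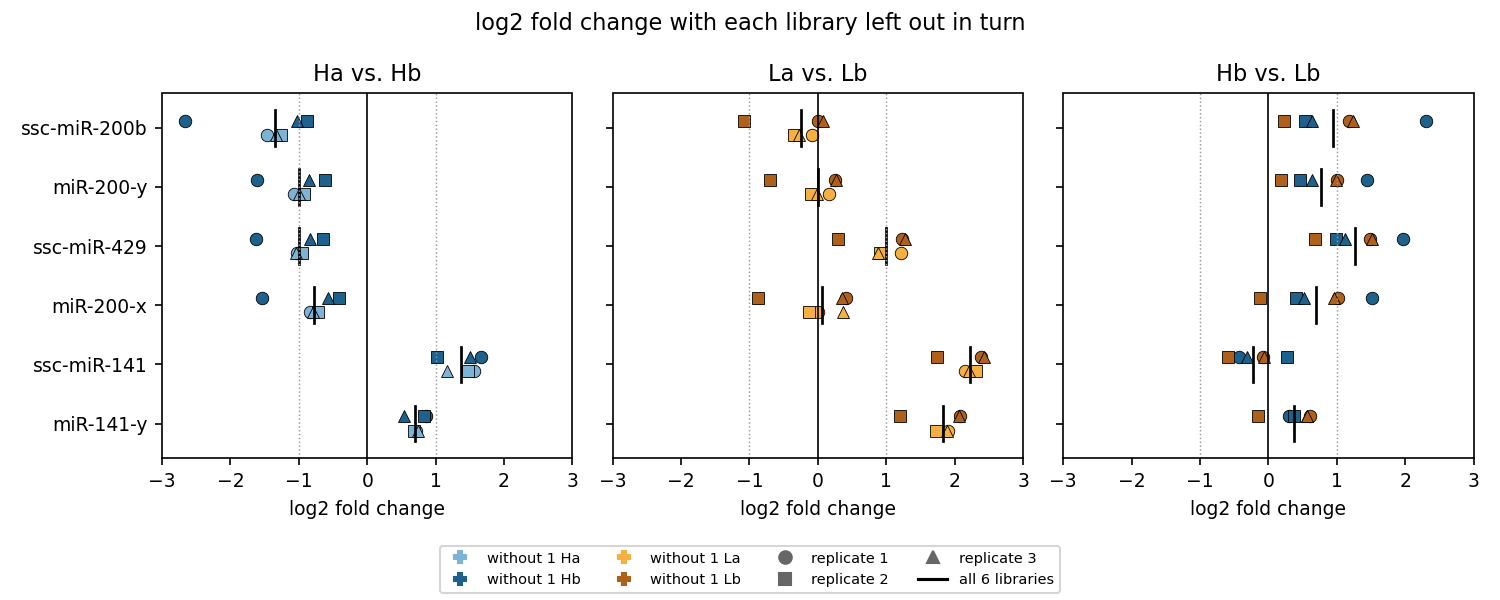
Log2 fold change of 6 family miRNAs with each library left out in turn, in 3 comparisons, with the value from all 6 libraries as a black line. Colour gives the group and shape the replicate number of the library left out. Leaving out Hb replicate 1 takes ssc-miR-200b from -1.35 to -2.66 in Ha vs. Hb and from 0.94 to 2.30 in Hb vs. Lb, while ssc-miR-141 stays above 1 in both comparisons between the ages.

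Over the 12 libraries, counts of the members of one transcript varied less against each other than those of the miR-141 entries did against them. The level of ssc-miR-200b spanned a 20.9-fold range over the 12 libraries, or 8.32-fold without Hb replicate 2. The ratio of miR-200-y to ssc-miR-200b, a ratio of raw counts that needs no scaling, spanned 2.22-fold, that of miR-200-x 3.03-fold and that of ssc-miR-429 3.44-fold. By contrast, the ratio of ssc-miR-141 to ssc-miR-200b ran from 0.0482 in La replicate 1 to 4.29 in Hb replicate 2, an 89.1-fold range, and that of miR-141-y spanned 21.8-fold. Without Hb replicate 2 these ranges were 26.7-fold and 16.9-fold, against 2.18 to 3.24-fold for the other 3. The wide range came from the ages and from Hb, since within Lb the same ratio was 0.30 to 0.497 and Lb replicate 2 was the highest library for the miR-141 entries as well. The 2 members with the seed AACACTG from different transcripts, miR-200-y and ssc-miR-141, thus had unlike patterns. These ranges are descriptions over libraries that share the group differences above, and no test was made of them.

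The ratio of miR-200-y to ssc-miR-200b was 1.64 to 1.84 in all libraries at 30 days and 1.77 in Hb replicate 1. It was 1.86 to 2.36 in Lb, and 3.65 and 3.58 in Hb replicates 2 and 3. The ratio of ssc-miR-429 to ssc-miR-200b was 0.0302 to 0.0573 at 30 days and 0.0496 in Hb replicate 1, and 0.0768 to 0.104 in the other 5 libraries at 120 days. The opposite arm miR-200-x took 5.64 to 6.31% of the tags of both arms in Ha, 4.60 to 8.32% in La, 5.86 to 7.84% in Lb, and 7.07, 12.7 and 11.3% in Hb replicates 1, 2 and 3. Hb replicates 2 and 3 had the highest values of the 12 libraries, but all 3 proportions rest on the ssc-miR-200b count, which was lowest there, and on 5 to 13 tags of ssc-miR-429 and miR-200-x.

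**Figure D4:**
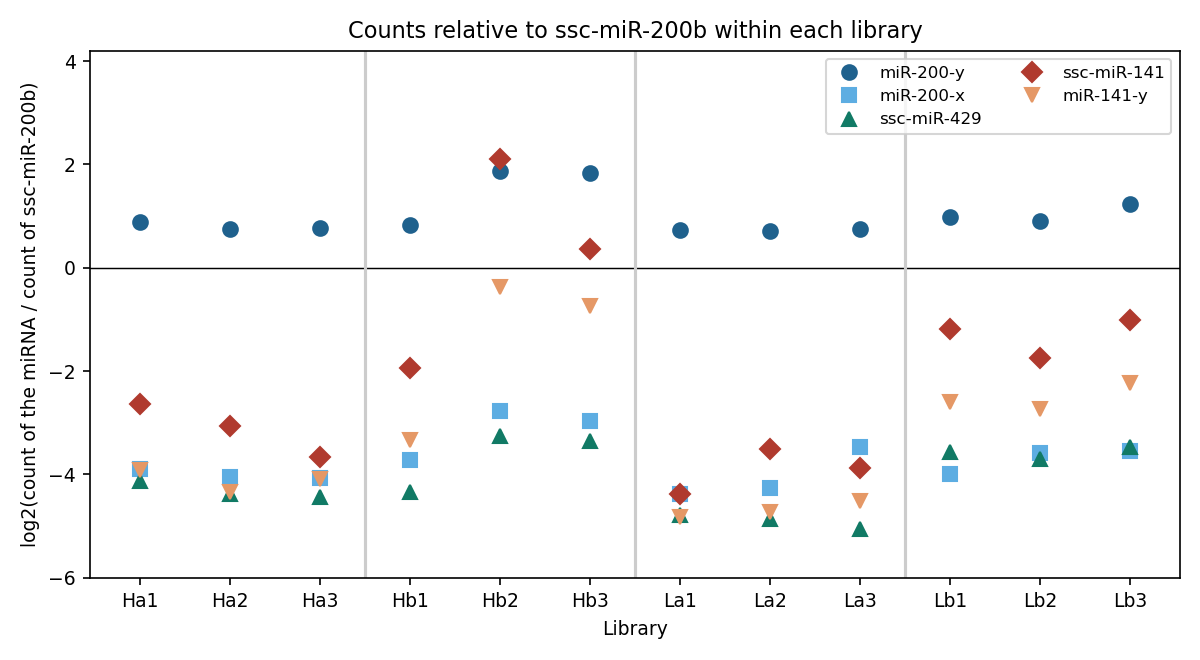
Counts of 5 family miRNAs divided by the count of ssc-miR-200b in the same library, on a log2 scale, for the 12 libraries in the order Ha, Hb, La and Lb. The points of miR-200-y lie between 0.72 and 1.87, whereas ssc-miR-141 rises from -4.38 in La replicate 1 to 2.10 in Hb replicate 2.

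Other miRNAs were compared if their mean over the 12 libraries reached 10 TPM. The 3 whose levels over the 12 libraries were most like miR-200-y, the most abundant member, were ssc-miR-1343, ssc-miR-2320-5p and miR-324-y. Likeness was the mean absolute difference of log2(TPM + 1) after centring each miRNA, and was 0.24, 0.29 and 0.29. Among members it was 0.24 for miR-200-x, 0.28 for ssc-miR-200b, 0.34 for ssc-miR-429 and 1.13 for ssc-miR-141. The median was 0.60 over the 434 miRNAs compared. The level of ssc-miR-1343 was 216.3, 26.5 and 81.2 TPM in Hb replicates 1, 2 and 3. It was picked for its likeness to miR-200-y over these same libraries, so a gap within Hb follows from that choice. The 3 most like ssc-miR-141 were ssc-miR-183, ssc-miR-96-5p and miR-192-x, at 0.26, 0.31 and 0.32. This compares with 0.34 for miR-141-y and a median of 0.91 over the 434. In HZ boars the mean of ssc-miR-183 was 214.6 ± 2.07 TPM (SD, n = 3) at 30 days and 664 ± 120 TPM at 120 days, and in LC boars 143.9 ± 11.7 TPM, then 482 ± 35.7 TPM.

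Of other miRNAs known from epithelia, 8 of 16 were called higher with age in each breed and none lower. The list held every entry named miR-192, miR-194, miR-203, miR-205 or miR-215, which gave 16. Several entries share a name, so they are not 16 separate miRNAs. For example, ssc-miR-192, miR-192-x and miR-192-z were all called in HZ boars. In Ha vs. Hb 8 of 16 were called higher and 0 lower, against 25.1% and 14.4% of the miRNAs tested, with a median log2 fold change of 1.57 against 0.32 for all. In La vs. Lb 8 of 16 were called higher and 0 lower, against 26.3% and 5.81%, with a median of 1.12 against 0.32. With an adjusted p under 0.05 they were 6 in HZ boars, against 31.6% of all tested, and 8 in LC boars, against 28.6%. These 2 shares count calls in either direction. The calls in HZ boars include miR-215-x, which was at 0 in Hb replicates 1 and 3 and at 2.29 TPM in Hb replicate 2. Those in LC boars include miR-205-y and miR-205-x, which were at 0 in the 3 La libraries and at 0.089 to 1.12 TPM in Lb, and miR-203-x, at 0 to 0.527 TPM in La. Without each library in turn, 6 to 9 and 8 to 9 of the 16 were called, against 34.3 to 40.2% and 29 to 33.3% of all tested. The most abundant was miR-203-y, a miRNA of stratified epithelium, which rose by log2 fold changes of 1.87 and 1.65 (adjusted p = 0.000264 and 1.1e-07 by edgeR). Another, ssc-miR-205, rose by 2.29 and 2.86 (adjusted p = 0.00253 and 9.11e-06 by edgeR). The summed level of the list was 191.5 to 264.6 TPM in Ha and 583 to 967 TPM in Hb, and for LC boars 212.9 to 234.3 TPM, then 667 to 721 TPM. In Hb the sum was 967, 583 and 728 TPM in replicates 1, 2 and 3, and miR-203-y alone made up 777, 267 and 527 TPM of it. The other 15 entries summed to 190.5, 316.7 and 200.5 TPM, so that without miR-203-y Hb replicate 1 was the lowest of Hb. In Lb the whole list was at 721, 667 and 667 TPM in replicates 1, 2 and 3, and without miR-203-y at 173.6, 133.9 and 161.2 TPM, so that Lb replicate 2, the highest library for 7 of the 8 members, was then the lowest of Lb.

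Markers of other cells of the testis were summed in the same way. The gonad miRNA miR-202 was abundant in all 12 libraries (9608 to 24400 TPM over 5 entries), the labelled tissue being testis. The germ cell list (miR-34b, miR-34c and miR-449, 4 entries) was at 16.6 to 76.9 TPM at 30 days and 2580 to 13890 TPM at 120 days, with 4303, 2580 and 13180 TPM in Hb replicates 1, 2 and 3. In 5 libraries at 30 days 1 of its entries was at 0. The blood list (miR-144, miR-451 and miR-486, 10 entries) was 1357 to 1768 TPM in Ha and 2201 to 2468 TPM in La, and at 120 days 2298, 1027 and 863 TPM in Hb replicates 1, 2 and 3 and 1220 to 1272 TPM in Lb. Hb replicate 1 was the highest of Hb, and every Lb library was below every La library. The smooth muscle list (miR-143 and miR-145, 9 entries) ran the other way in Hb, at 58180, 81390 and 92500 TPM, and was 20690 to 36350 TPM at 30 days and 55600 to 65210 in Lb. Striated muscle (miR-1, miR-133 and miR-206, 11 entries) was 108.9 to 284.7 TPM at 30 days and 453 to 846 at 120 days, and the endothelial miR-126 (4 entries) 8701 to 15840 TPM over all libraries. Several of these lists differ with age as well, and their part in the changes of the family was not tested.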

How the data were processed

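The authors filtered the reads of each library with fastp, removed tags of other non-coding RNAs and of exons, introns and repeats of Sscrofa11.1, and used bowtie to match what was left with miRBase, while miRDeep2 predicted new miRNAs. The counts they deposited are unnormalized numbers of tags for each listed miRNA and library. The TPM deposited by the authors divide them by a library total, and a count of 0, written as 0.01, was read here as 0. The listed length, in other units than the counts, is that of the mature sequence in nt, and the total deposited with them is the sum of the counts. A second deposited file, on predicted hairpins, was not used. Adaptor ligation and PCR can favour some sequences, so levels of different miRNAs compare less firmly than 1 miRNA between libraries.

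Counts were tested with edgeR 4.0.16 in R 4.3.3 (glmQLFit and glmQLFTest, TMM normalization). Each comparison had its own fit, over all miRNAs counted at least 1 time in the 6 libraries concerned, and p-values were adjusted over all of them by the Benjamini-Hochberg method. All 8 members passed this filter in every comparison. Standard errors were derived from the F statistic. TMM factors were 0.694 to 1.195. A floor of 3 counts was 0.158 to 0.404 TPM. Replicate libraries differed beyond counting noise (chi-square divided by its degrees of freedom was 49.45 to 1178, highest within Hb), and all 12 were used as separate samples.

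The members, lists, thresholds and alternatives were chosen with earlier results of these data known. Every member is reported. Members whose mean reached 1 TPM in any group are given by library. For the most abundant entry of each transcript, the 3 most alike miRNAs were named. The alternatives tried were filterByExpr, no filter, all 12 libraries in 1 fit, merged identical sequences, family entries with the same first 18 bases summed, the replicate number as a block, DESeq2 1.42.0 in its Wald form, the exact test of edgeR, RLE factors, library size as the only scaling, and each library left out in turn. The epithelial list was put through them after seeing the data.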

Additional observations from a re-analysis of the deposited data

How the results depend on the processing

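The 8 members were recomputed in the 4 comparisons and the interaction. Summed entries lost their own value under the summed start, and the exact test and the adjusted p had no separate value for the interaction. Of 684 alternative values, 604 kept their direction and their side of the threshold, 31 passed the threshold only under the alternative, 27 lost it and 22 changed sign, mostly values near 0. Of 32 group levels, 23 moved by less than 1 SD when counts scaled by TMM replaced the authors' TPM, and 9 did not. Among the 9 was miR-141-x in Hb, which was at 0 by either measure and so did not move. The scaled counts also divide by the counts on listed miRNAs and the TPM by a larger total, so not every shift comes from TMM. The rise of ssc-miR-141 with age was called in both breeds under every alternative, although its adjusted p in Ha vs. Hb was 0.0516 with scaling by library size and 0.0624 without Ha replicate 3. Depth limits miR-429-z and miR-141-x, with 22 and 21 tags in all, and neither passed filterByExpr.

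In Ha vs. Hb, 1 member was called with scaling by library size, filterByExpr or an adjusted p, and 1 to 5 with a library left out. In La vs. Lb, 2 were called with DESeq2, filterByExpr, a summed shared start or an adjusted p, and 2 to 5 with a library left out. In Ha vs. La, 1 was called with scaling by library size, and 0 to 1 with a library left out. In Hb vs. Lb, 1 was called with scaling by library size, 0 with filterByExpr or an adjusted p, and 0 to 6 with a library left out. The interaction gave 0 to 3 with a library left out. In the same order, the share of all miRNAs called was 34.3 to 40.2%, 29 to 33.3%, 8.43 to 11.3%, 12.7 to 21.1% and 0 to 11.6% with a library left out. In the 4 comparisons it was 36.4, 34.1, 10.3 and 15.2% with scaling by library size, 33.2, 26.4, 6.73 and 14.8% with DESeq2, and 46.3, 31.9, 8.58 and 18.3% with filterByExpr. Among all miRNAs, the number of calls was 570, 464, 121 and 243 in the order of comparisons above, and with filterByExpr it was 61.8, 55.4, 51.2 and 59.7% as large. An adjusted p gave 67 and 47 calls in the last 2 comparisons. For the interaction, 20 passed in the test used, 36 with RLE, 0 with scaling by library size, 121 with DESeq2, 63 with filterByExpr, 11 with identical sequences merged and 0 to 168 with a library left out.

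Signs changed for miR-200-y in La vs. Lb with RLE (-0.031), DESeq2 (-0.029) and all 12 libraries in 1 fit (-0.060), and for ssc-miR-141 in Hb vs. Lb with scaling by library size (0.20). With a library left out, the range crossed 0 in Ha vs. Hb for miR-429-z (-0.023 to 1.26), in La vs. Lb for ssc-miR-200b (-1.08 to 0.079), miR-200-y (-0.70 to 0.27) and miR-200-x (-0.88 to 0.40), and in Ha vs. La for miR-429-z (-0.34 to 0.71), miR-141-x (-3.17 to 0.053) and miR-200-x (-0.35 to 0.11). It did so in Hb vs. Lb for ssc-miR-141 (-0.59 to 0.27), miR-141-y (-0.15 to 0.61) and miR-200-x (-0.12 to 1.51), and in the interaction for miR-200-x (-0.062 to 1.65). The cause was not tested.

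Libraries share replicate numbers across groups, but neither the labels nor the study's methods say that the numbers pair them. The correlation of deviations between libraries of the same number was -0.297 to 0.186, over 0.1 in 4 of 12 pairs. Of 24, 9 correlated best with their own number. Such correlations cannot show whether libraries of the same number were handled together. With the replicate block, 4 members were called between the ages in HZ boars and 3 in LC boars, against 34.1 and 30.2% of all miRNAs. Between the breeds 0 and 3 were called at 30 and 120 days, against 8.37 and 16.5%, and in the interaction 0, against 1.38%. The calls gained were ssc-miR-429 (-1.16) and miR-200-y (-1.24) in Ha vs. Hb and ssc-miR-200b (1.24, adjusted p = 0.0331 by edgeR) in Hb vs. Lb, and that of miR-429-z in La vs. Lb was lost. With it, miR-200-y and miR-200-x were at -0.16 and -0.14 in La vs. Lb.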

Other observations

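The longer entry miR-141-y took 33.6 ± 7.72% (SD, n = 3) of the tags of both entries of its arm in Ha and 24.8 ± 8.58% in Hb. For La the share was 37.1 ± 6.28% and for Lb 30.3 ± 3.00%, so the groups overlapped. The lowest share was 15.2% in Hb replicate 2 and the highest 42.5% in Ha replicate 3.

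Another miRNA of the epithelial list, ssc-miR-192, had its highest level in Hb replicate 2, the library in which ssc-miR-200b was lowest. Its level was 111.7, 265.6 and 116.9 TPM in Hb replicates 1, 2 and 3, and 73.5 to 91.2 TPM in Lb. It was called higher in Hb than in Ha (log2 fold change 2.02, adjusted p = 0.00308 by edgeR) and lower in Lb than in Hb (-1.51, adjusted p = 0.0907 by edgeR). Without Hb replicate 2 the values were 1.16 (adjusted p = 0.000398 by edgeR), still called, and -0.47 (adjusted p = 0.273 by edgeR), no longer called. It was singled out after its values were seen.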
